A study of Mus musculus with 24 samples.

Results

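Fat labelled subcutaneous inguinal from 2 inbred mouse strains on the same standard diet was compared by RNA-seq: NZO/HiLtJ, a strain that becomes severely obese and is prone to diabetes, against C57BL/6J, the usual reference strain. The libraries were chosen by their strain and diet labels alone, which gave 3 of NZO/HiLtJ and 3 of C57BL/6J, 6 of the 24 libraries in the series. Each library came from 1 female mouse killed at 26 weeks that had eaten a standard diet with 17% of calories as fat since week 4. The other libraries were CAST/EiJ and WSB/EiJ, both wild-derived strains, and all 4 strains on a diet with 45% of calories as fat and 34% sucrose by weight. None of the 4 strains carried an engineered allele per the labels, and both groups compared here had the same supplier, housing, age and diet. The 6 libraries held 69721087 to 84009032 counts each, and mice of 1 group differed beyond counting error in every pair (chi-square over its degrees of freedom, 37.5 to 110). Gene levels below are normalised CPM, that is counts relative to a library total scaled by TMM (trimmed means), and differences are log2 fold changes, NZO/HiLtJ minus C57BL/6J, ± standard error. A gene was called when its Benjamini-Hochberg adjusted p in the quasi-likelihood test of edgeR was below 0.05.

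White fat stores triglyceride in adipocytes and secretes hormones such as leptin and adiponectin. It also holds preadipocytes, blood vessels and immune cells, and in obesity macrophages gather around stressed adipocytes, take up lipid and release cytokines. MHC class I molecules, which present peptides on the cell surface, are raised by interferons, and Ifi202b, a member of the interferon-inducible Ifi200 cluster, has been proposed as an obesity gene of NZO mice. In bulk tissue fewer cells of a type and less RNA per cell cannot be told apart.

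Adipocyte transcripts were abundant in all 6 libraries. The 20 adipocyte markers together reached 46700 to 48400 CPM in NZO/HiLtJ and 42500 to 44700 CPM in C57BL/6J, a ratio of means of 1.08 (exact permutation p = 0.1, 2-sided, the smallest that 3 against 3 allows). Genes known to differ between fat depots were mixed with respect to that label. Tbx15, a developmental factor typical of subcutaneous fat, lay at no more than 0.108 CPM in the 6 libraries. Wt1 and Upk3b, which mark the mesothelium that covers intra-abdominal fat, lay at 15.4 CPM or more and 7.22 CPM or more in every library of the series. The positional genes Hoxc10, Hoxa9 and Hoxc9 (3.04 to 4.03 CPM) were expressed in the 6 libraries, while Pitx1 (0.301 to 1.77 CPM), Shox2 (0.297 to 0.795 CPM) and En1 were low. For some of these genes the values of the strains did not overlap, which held for 46.5% of all genes tested. Calls of Hox and positional genes are given below. Hoxc10 lay at 12.1 to 13.5 CPM in NZO/HiLtJ and 7.63 to 8.23 CPM in C57BL/6J. Hoxa9 lay at 7 to 11.2 CPM against 11.4 to 14.2 CPM, and En1 at 0.0239 to 0.0944 CPM against 0.158 to 0.239 CPM. En1 had only 96 counts in all 24 libraries together. Tbx5, another positional gene, lay at 1.13 to 1.81 CPM against 0.0809 to 0.197 CPM and was not called (adjusted p = 0.0659 by edgeR). The part of the depot in the results was not tested.

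On the standard diet 858 genes were higher and 817 genes lower in NZO/HiLtJ among the 20035 genes tested, which is 4.28% and 4.08% of them. Of these 1675 genes 1068 differed at least 2-fold. The median log2 fold change of all genes was 0, and 46.5% of all genes tested had no overlap between the 3 and 3 libraries. The spread in this fit came from all 24 libraries. They include replicate 1 of CAST/EiJ on the high-fat diet, which has Adipoq at 4.75 CPM of its unscaled total against at least 621 CPM in each of the others. Without that library 3305 genes were called, and a fit on the 12 standard-diet libraries called 5148 of 19038 genes, 14.5% higher and 12.5% lower, with 1642 of the 1675 among them. Counts of list members are therefore given for both fits, with the range in the fits without 1 of the 6 compared libraries where it moves them by over 1.5 times, and "higher" and "lower" without further words refer to calls of the fit on 24 libraries. Leaving out replicate 1 or 2 of C57BL/6J left 772 and 809 calls. Dropping NZO/HiLtJ replicate 1, 2 or 3 gave 855, 980 and 962 calls. Of the genes described below, A1bg, Abcg1, C3ar1, Cdsn, Cpt1b, Disp2, Dpp4, Eps8l1, Hsd11b1, Hspa1a, Hspa1b, Igtp, Ltb, Lum, Ncr1, Npr2, Pfkl and Saa4 lost the call in 4 to 6 of the 24 fits without 1 library, and Apcs, Ccl3, Ccr7, Cth, Fam196b, Fbxo44, Gbp2, Gstm5, Hamp2, Hoxd8, Ifi203, Ifi205, Lrrn4, Mx1, Ncan, Pctp, Pfkp, Timp2 and Unc5a in 1 to 3, in each case when a compared library was left out, except 1 other library for Saa4. The plot of the strain difference by gene level shows calls at every level.

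**Figure D1:**
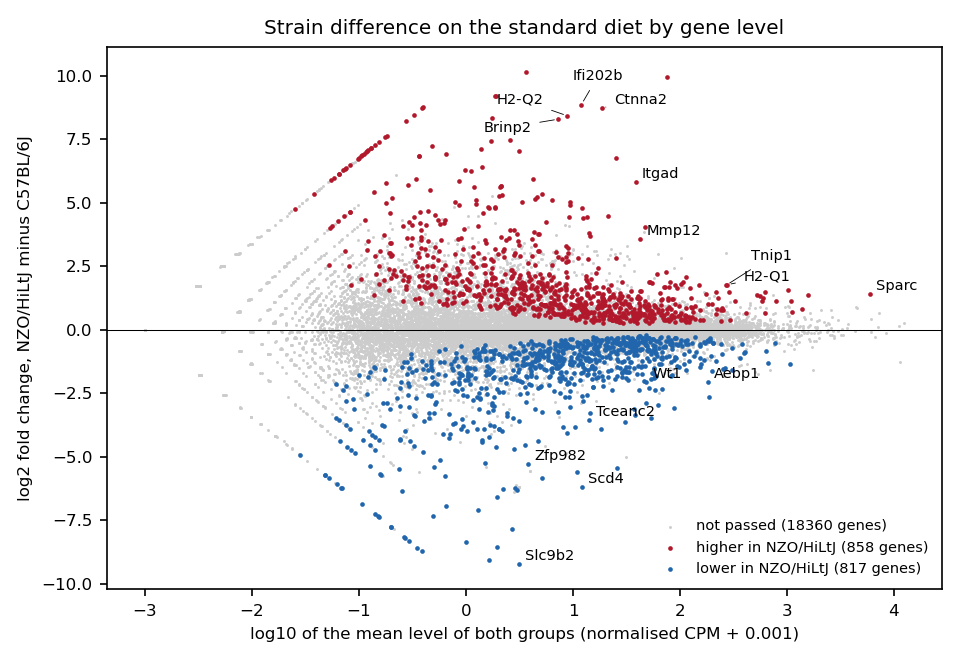
Log2 fold change of NZO/HiLtJ minus C57BL/6J on the standard diet (y axis) against the log10 mean level of both groups in normalised CPM (x axis), 1 point per gene tested. The 858 genes called higher are red, the 817 called lower are blue and the rest grey, and the rays at the left are genes with no or few counts in 1 group.

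The genes with the highest fold changes were nearly silent in C57BL/6J. Ifi202b (ENSMUSG00000026535), which encodes an interferon-inducible DNA-binding protein, lay at 28.1, 19.6 and 24.1 CPM in NZO/HiLtJ and at 0.027, 0.0791 and 0.0422 CPM in C57BL/6J. The 3 C57BL/6J libraries held 11 counts of it in all against 5560, a ratio of 477 (counting interval 267 to 957, 95%). Its log2 fold change was 8.86 ± 0.84 (adjusted p = 1.61e-06), and the groups were far apart. On the same diet WSB/EiJ had a mean of 6.79 CPM, and CAST/EiJ of 0.0519 CPM. H2-Q2 (ENSMUSG00000091705), a nonclassical class I gene with near-identical relatives, had 16.2, 18.0 and 19 CPM against 0.0539, 0.0264 and 0.0703 CPM (8.42 ± 0.71, adjusted p = 4.19e-07).

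Several of the other genes in this group are known mainly from nerve cells. Ctnna2, the neuronal alpha-catenin, had 35.0, 40.6 and 35.5 CPM in NZO/HiLtJ against 0.162, 0.0791 and 0.0141 CPM (8.73 ± 1.87, adjusted p = 0.00664). Brinp2, a secreted neural protein, had 14.5, 16 and 13.4 CPM against at most 0.0922 CPM (8.29 ± 1.37, adjusted p = 0.000772). Tph2, which makes serotonin in neurons, had 60, 44.9 and 44.4 CPM against 0.404, 0.277 and 0.703 CPM (6.75 ± 0.97, adjusted p = 0.000199). For each of these the NZO/HiLtJ libraries agreed closely and were well above every C57BL/6J library. Ncan, the brain proteoglycan neurocan (5.01 ± 1.22, adjusted p = 0.015) and Fam196b (7.04 ± 1.57, adjusted p = 0.0104) were higher too. The summed markers of nerve and Schwann cells lay at 285 to 293 CPM in NZO/HiLtJ and 240 to 286 CPM in C57BL/6J, and 0 of those 12 genes was called, with 2 higher and 3 lower in the fit on 12 libraries.

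Itgad and S100a8 are genes of myeloid cells. Itgad, the integrin chain CD11d of tissue macrophages, had 135, 59.6 and 31.9 CPM in NZO/HiLtJ against 1.15, 0.949 and 1.96 CPM (5.81 ± 0.67, adjusted p = 1.99e-05). The NZO/HiLtJ values spread over a wide range but did not overlap the low C57BL/6J values. S100a8, a calcium-binding protein of neutrophils, had 12.1, 5.34 and 8.25 CPM against 0.229, 0.0791 and 0.408 CPM (5.15 ± 0.83, adjusted p = 0.000589). A1bg, a plasma glycoprotein of the liver, and Hamp2, a hepcidin of liver, followed another pattern. A1bg had 18.6, 33.0 and 2.32 CPM and Hamp2 16.2, 16.8 and 3.93 CPM in NZO/HiLtJ replicates 1, 2 and 3, against at most 0.712 and 0.661 CPM in C57BL/6J (4.91 ± 1.34 and 5.12 ± 1.13, adjusted p = 0.0292 and 0.00825). The liver gene Alb had the same order, with 487, 878 and 75.8 CPM in NZO/HiLtJ and 66.5, 64.1 and 47 CPM in C57BL/6J. The part of liver transcripts in these calls was not tested.

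The genes with the lowest fold changes included lipid and detoxification enzymes. Slc9b2 (ENSMUSG00000037994), a sodium-proton exchanger, held 1, 1 and 0 counts in NZO/HiLtJ and 520, 350 and 509 in C57BL/6J, a ratio of 730 (counting interval 202 to 6030, adjusted p = 3.26e-07). Scd4, a stearoyl-CoA desaturase with near-identical relatives, had 0.324, 0.395 and 0.262 CPM against 18.1, 24.5 and 29.4 CPM (-6.19 ± 0.94, adjusted p = 0.000332). WSB/EiJ had a mean of 0.987 CPM, and CAST/EiJ of 78.9 CPM, so the strains fell on both sides of C57BL/6J. Akr1cl, an aldo-keto reductase, varied within C57BL/6J, with 57.6, 81.7 and 11 CPM, and was still above the 0.917, 1.88 and 0.668 CPM of NZO/HiLtJ (-5.43 ± 1.15, adjusted p = 0.00593). Gstm6, a glutathione transferase (-4.08 ± 0.80, adjusted p = 0.00334), Eps8l1, an actin regulator (-5.84 ± 1.60, adjusted p = 0.0299), Unc5a, a netrin receptor (-3.91 ± 0.88, adjusted p = 0.00938), Fbxo44, an F-box protein (-3.81 ± 0.85, adjusted p = 0.00875), Disp2 (-3.81 ± 1.08, adjusted p = 0.0344) and Cdsn, the corneodesmosin of skin (-3.65 ± 1.01, adjusted p = 0.0317), were lower as well. Ptpn5, a phosphatase, had 16.1, 44.4 and 3.05 CPM in C57BL/6J against at most 0.782 CPM (-5.59 ± 1.69, adjusted p = 0.0468), and its call was lost in 17 of the 24 fits without 1 library.

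The smallest p-values belonged to genes whose 3 libraries hardly varied. Tceanc2, a gene named for its likeness to a transcription elongation factor, had 2.25, 2.21 and 2.21 CPM in NZO/HiLtJ against 25.8, 26.6 and 26.7 CPM in C57BL/6J (-3.56 ± 0.13, adjusted p = 4.74e-12). CAST/EiJ and WSB/EiJ lay near C57BL/6J, at means of 20.8 and 24.2 CPM, so NZO/HiLtJ alone was low. The zinc finger genes Zfp979 and Zfp982, members of a family of close copies, had 0.485, 0.467 and 0.354 CPM against 8.65, 8.29 and 10.3 CPM (-4.38 ± 0.29, adjusted p = 1.62e-08) and 0.27, 0.168 and 0.131 CPM against 7.04, 7.41 and 7.85 CPM (-5.28 ± 0.42, adjusted p = 1.69e-07). Tnip1, which binds the ubiquitin-editing protein A20 and restrains NF-kB signalling, was higher at 409, 439 and 403 CPM against 129, 117 and 126 CPM (1.75 ± 0.13, adjusted p = 9.76e-08). Its means in CAST/EiJ and WSB/EiJ were 82.1 and 72.0 CPM, both below C57BL/6J. Pigt, a subunit that attaches GPI anchors, showed a smaller difference with as little spread, 188, 209 and 184 CPM against 111, 108 and 117 CPM (0.79 ± 0.08, adjusted p = 2.72e-06).

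Also among the higher genes of this kind were Zfp949 (1.39 ± 0.14), Serpina3g, a protease inhibitor of immune cells (2.09 ± 0.22), Btla, an inhibitory receptor of lymphocytes (2.67 ± 0.29), Mcc (1.51 ± 0.17), Slc37a2, a sugar-phosphate exchanger of macrophages (1.65 ± 0.20), and Dynlt1a, a dynein light chain with close copies (1.32 ± 0.15). The lower ones included Fut11, a fucosyltransferase (-1.15 ± 0.10), Usp35, a deubiquitinase (-2.65 ± 0.24), Rpap2, a phosphatase of RNA polymerase (-0.77 ± 0.09), Slc9a3r1, a membrane scaffold (-1.41 ± 0.17), and Eci3, an enoyl-CoA isomerase (-2.62 ± 0.32). Aebp1, a matrix protein of preadipocytes and fibroblasts, had 75.7, 74.7 and 59.4 CPM against 301, 302 and 278 CPM (-2.07 ± 0.22, adjusted p = 7.95e-06), and Igfbp6, a binder of insulin-like growth factors, 24.5, 25.6 and 17.9 CPM against 129, 118 and 92.9 CPM (-2.32 ± 0.25, adjusted p = 1.08e-05).

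**Figure D2:**
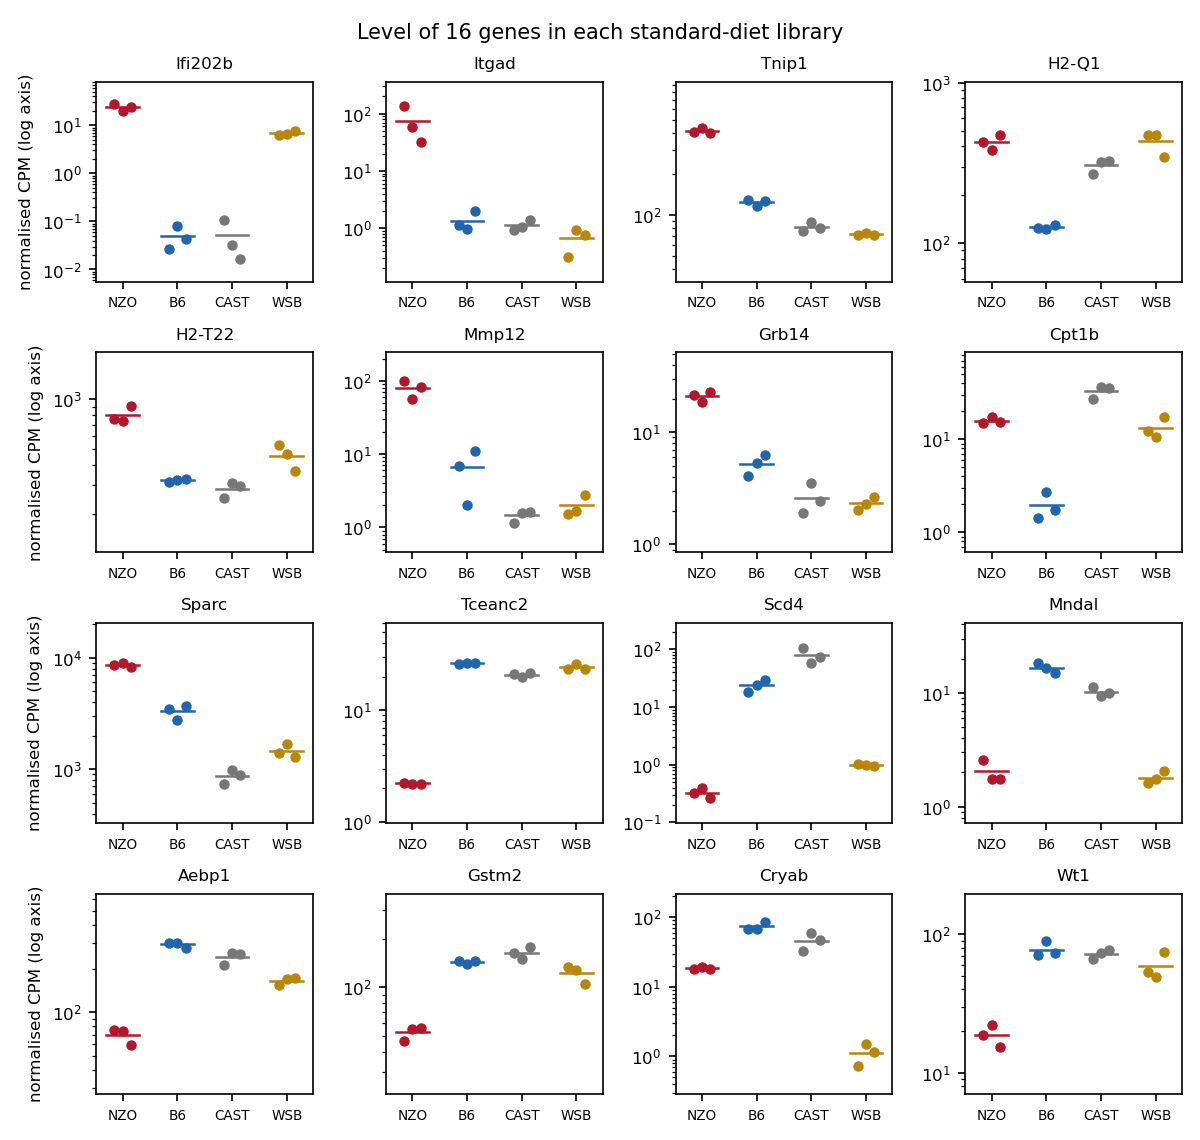
Level of 16 genes in normalised CPM (log axis) in each of the 12 standard-diet libraries, with 1 point per mouse and a line at the mean of each strain (NZO for NZO/HiLtJ, B6 for C57BL/6J, CAST for CAST/EiJ, WSB for WSB/EiJ). For Tceanc2 NZO/HiLtJ lay at 2.23 CPM on average and the other strains between 20.8 and 26.3 CPM, while for Ifi202b and Mndal WSB/EiJ lay on the side of NZO/HiLtJ.

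Antigen presentation had the largest share of higher genes among the 48 lists in the fit on 24 libraries. Of the 25 tested members of the class I and II list 12 were higher and 0 lower, with a list median of 0.55 against 0 for all genes. The 12 were H2-Q2, H2-Q10, H2-Q1, H2-T23, H2-T24, H2-T22, H2-Q6, H2-Q4, H2-Q7, Tap1, B2m and Tap2, so all belonged to class I or its peptide transport, and no class II gene was called. H2-Q1 had 424, 380 and 474 CPM in NZO/HiLtJ against 124, 123 and 129 CPM (1.77 ± 0.19, adjusted p = 8.76e-06). H2-T22 had 758, 737 and 904 CPM against 315, 320 and 327 CPM (1.32 ± 0.18, adjusted p = 0.000147). H2-T23, a nonclassical class I gene picked with its values in view, had 413, 349 and 516 CPM against 160, 140 and 163 CPM (1.47 ± 0.21, adjusted p = 0.000196). In these genes replicate 3 was the highest NZO/HiLtJ library, and no NZO/HiLtJ value came near C57BL/6J.

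B2m, the light chain of every class I molecule, had 1380, 1320 and 1460 CPM against 853, 758 and 932 CPM (0.71 ± 0.19, adjusted p = 0.0248), and its call was lost in 5 of the 24 fits without 1 library. Tap1, a subunit of the peptide transporter, had 112, 94.1 and 154 CPM against 59.5, 56 and 62.8 CPM (1.01 ± 0.31, adjusted p = 0.0475), and its call was lost in 19 of the 24 fits without 1 library. The classical chains H2-K1 (0.38 ± 0.21, adjusted p = 0.322) and H2-D1 (0.65 ± 0.20, adjusted p = 0.0532) did not pass, and H2-D1 did in the fit on 12 libraries (adjusted p = 0.00537). B2m, Tap1, H2-K1 and H2-D1 were named after their values were seen. The count of 12 was 13 in the fit on 12 libraries and 8 without NZO/HiLtJ replicates 1 and 2, where the lone replicate 3 is assumed to vary like the other groups. H2-Q and H2-T genes are close copies and differ between strains in number and sequence, so how reads were shared among them is uncertain.

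Stretches of 60 bases before the start of 6 of the genes are printed to show 2 short motifs that interferon-regulated class I promoters are known for. They are AANNGAAA, the core bound by interferon regulatory factors, and GGGNNTTCC, like the sites of NF-kB. Both were searched on both strands in the 250 bases before the start, in RefSeq promoters of build GRCm38.p6, which is not the build of the count table. Matches are in capitals, the reverse strand included, and both matches in Igtp overlap. The regions are chr2:122147527-122147586 (+) for B2m, chr17:36032772-36032831 (-) for H2-T23, chr17:35439015-35439074 (+) for H2-Q7, chr17:34000418-34000477 (-) for H2-K1, chr3:142620573-142620632 (+) for Gbp2 and chr11:58199496-58199555 (+) for Igtp.
B2m: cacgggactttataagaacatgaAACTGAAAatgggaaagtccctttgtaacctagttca
H2-T23: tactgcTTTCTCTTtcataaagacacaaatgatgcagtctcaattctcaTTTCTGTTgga
H2-Q7: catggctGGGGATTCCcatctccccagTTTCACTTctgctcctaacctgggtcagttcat
H2-K1: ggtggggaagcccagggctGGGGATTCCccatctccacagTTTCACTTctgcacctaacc
Gbp2: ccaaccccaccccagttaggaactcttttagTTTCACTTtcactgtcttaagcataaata
Igtp: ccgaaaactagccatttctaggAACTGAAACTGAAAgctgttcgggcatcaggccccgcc

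A window was found for 9 of the 12 higher genes of the list, and 8 of these 9 windows held AANNGAAA, against 21.3% of all 32851 windows. Among the 13 members that did not pass, 10 had windows, and 6 of their 12 windows held it. The class II genes tested are all among these 13, so the sets differ in class as well as in call. Windows of H2-Q and H2-T genes, which are close copies, are not independent cases. GGGNNTTCC was in 3 of the 9 and 5 of the 12 windows, against 4.98% of all. H2-K1, which did not pass, carries both motifs in nearly the arrangement of H2-Q7, which was higher (1.01 ± 0.19, adjusted p = 0.00187). H2-Q7 was named after its values were seen. The matches describe the C57BL/6J reference sequence and not the NZO/HiLtJ alleles.

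Of the 32 tested interferon response genes 4 were higher and 0 lower (list median 0.39, 1 to 4 higher without 1 compared library), with 15 higher and 1 lower in the fit on 12 libraries. Mx1, an antiviral GTPase of which C57BL/6J carries a defective allele, had 106, 67.3 and 95 CPM in NZO/HiLtJ against 6.39, 3.41 and 6.29 CPM (4.06 ± 0.91, adjusted p = 0.00898). CAST/EiJ and WSB/EiJ were at means of 4.22 and 4.72 CPM, near C57BL/6J. The GTPases Iigp1 (108, 79.0 and 140 CPM against 28.0, 32.4 and 42.7 CPM, 1.67 ± 0.35, adjusted p = 0.00604), Igtp (0.96 ± 0.26, adjusted p = 0.0307) and Gbp2 (0.76 ± 0.18, adjusted p = 0.0112) were higher by less, and Igtp was named after its values were seen. Without NZO/HiLtJ replicates 1 and 2 the count was 1. In the Ifi200 family the members moved in both directions. Beside Ifi202b, which was higher, 4 of the 6 tested members were lower, and of these Mndal had 2.59, 1.77 and 1.77 CPM against 18.2, 16.7 and 15.0 CPM (-3.03 ± 0.26, adjusted p = 4.19e-07), Ifi205 9.17, 6.49 and 6.94 CPM against 35.7, 50.8 and 30.9 CPM (-2.38 ± 0.54, adjusted p = 0.0099) and Ifi203 47.7, 39.8 and 46 CPM against 106, 85.3 and 86.3 CPM (-1.06 ± 0.25, adjusted p = 0.0125). These genes are near-identical copies in 1 cluster, so reads of one may be counted for another. Without NZO/HiLtJ replicates 1 and 2 the family's lower count was 1, without 1 compared library it was 1 to 4, and in the fit on 12 libraries 2 were higher and 4 lower.

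Of 28 tested cytokine and chemokine genes 8 were higher and 1 lower (list median 1.35), and 17 were higher and 3 lower in the fit on 12 libraries. Il1rn, the interleukin-1 receptor antagonist, had 9.60, 7.57 and 9.10 CPM against 0.62, 0.514 and 0.802 CPM (3.76 ± 0.74, adjusted p = 0.00336). The chemokines Ccl5 (4.99, 3.24 and 4.35 CPM against 1.13, 0.883 and 1.08 CPM, 2.02 ± 0.43, adjusted p = 0.00661) and Ccl3 (0.485, 0.347 and 0.223 CPM against at most 0.0563 CPM, 2.90 ± 0.69, adjusted p = 0.0127) were higher as well. Among members named after their values were seen, Tnf (1.88 ± 0.56, adjusted p = 0.0452) and Il1b (2.16 ± 0.64, adjusted p = 0.0433) were higher but lost the call in 16 and 13 of the 24 fits without 1 library. Ccl2, the main monocyte attractant, had 11.5, 9.98 and 8.82 CPM against 2.24, 3.32 and 4.43 CPM (1.60 ± 0.55) and passed only in the fit on 12 libraries (adjusted p = 0.085 and 0.00699). The exception, Il18, was lower (-1.12 ± 0.25, adjusted p = 0.00851). Without any 1 of the 6 compared libraries 2 to 5 members were higher, and without NZO/HiLtJ replicates 1 and 2 the count was 1.

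Among 17 general macrophage markers 2 were higher: Cd68, a lysosomal glycoprotein (79.8, 65.8 and 82.5 CPM against 39.8, 39.7 and 41.4 CPM, 0.92 ± 0.17, adjusted p = 0.00181), and Mpeg1, a pore-forming protein (66.1, 42.3 and 70.8 CPM against 23.7, 20.5 and 30.4 CPM, 1.26 ± 0.24, adjusted p = 0.00299). These 2 calls are 11.8% of the list, against 4.28% of all genes higher. In the fit on 12 libraries 5 were higher and 2 lower, where 14.5% and 12.5% of all genes were. The lower share was thus near that of all genes. One of the lower ones was Cd163, a scavenger receptor of resident macrophages named after its values were seen. It lay at 49.7, 43.2 and 43.2 CPM against 122, 107 and 113 CPM (-1.33 ± 0.80, adjusted p = 0.378, and 2.49e-06 in the fit on 12 libraries). The 17 markers summed to 1050 to 1510 CPM in NZO/HiLtJ and 1100 to 1210 CPM in C57BL/6J (exact permutation p = 0.4, 2-sided), with overlap.

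Genes of lipid-associated macrophages, the kind that forms around dying adipocytes, had a list median of 0.86, and 13 of 17 had no overlap with NZO/HiLtJ on top, against 46.5% of all genes without overlap in either direction. Of these 17 genes 3 were higher in the fit on 24 libraries and 12 in the fit on 12, with 0 lower in both. Mmp12, a macrophage elastase, had 97.5, 55.6 and 83.0 CPM against 6.90, 1.99 and 11 CPM (3.57 ± 0.78, adjusted p = 0.00736). Itgax, the CD11c chain, had 34.2, 22.1 and 29.9 CPM against 5.07, 3.43 and 7.47 CPM (2.43 ± 0.46, adjusted p = 0.00234). Lipa, the acid lipase of lysosomes, was higher by 0.61 ± 0.18 (adjusted p = 0.0421, lost in 11 of the 24 fits without 1 library). Gpnmb and Trem2, both known markers of these cells and named after their values were seen, had 38.0, 23 and 46.5 CPM against 7.71, 5.81 and 9.19 CPM (2.24 ± 0.71, adjusted p = 0.0605) and 44.7, 30.9 and 44.6 CPM against 26.3, 21.5 and 11.3 CPM (1.02 ± 0.63, adjusted p = 0.393). Both passed in the fit on 12 libraries (adjusted p = 0.000113 and 0.0145). Without NZO/HiLtJ replicates 1 and 2 the list's higher count was 1, and without 1 compared library it was 2.

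Of 18 B and T cell markers 5 were higher and 0 lower (27.8% against 4.28% of all genes higher), and 13 did not pass. The count was 1 to 5 without 1 compared library, 1 without NZO/HiLtJ replicates 1 and 2, and 10 higher and 0 lower in the fit on 12 libraries. The markers summed to 28.4 to 77.7 CPM in NZO/HiLtJ and 12.8 to 21.2 CPM in C57BL/6J. Cd4, the helper T cell coreceptor, had 6.28, 3.18 and 6.74 CPM against 1.15, 1.79 and 1.91 CPM (1.74 ± 0.28, adjusted p = 0.000679). Ltb, a lymphotoxin, and Ccr7, a homing receptor, were higher by 1.42 ± 0.39 and 1.75 ± 0.45 (adjusted p = 0.0294 and 0.0223), and replicate 1 was the highest NZO/HiLtJ library for both. The B cell genes Ms4a1 (2.35 ± 0.68) and Cd79a (1.90 ± 0.56), named after their values were seen, were called but lost the call in 14 of the 24 fits each. Ncr1, a receptor of natural killer cells, was the only called member of 13 natural killer and mast cell markers (0 or 1 without 1 compared library, 6 higher and 1 lower in the fit on 12), with 9.44, 3.61 and 3.71 CPM against 0.755, 0.659 and 0.816 CPM (2.91 ± 0.76, adjusted p = 0.023). The fat pad can hold a lymph node, whose part in these values was not tested.

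Matrix genes were called in both directions, as were all genes together (858 higher and 817 lower). Of 35 tested genes 4 were higher and 5 lower (11.4% and 14.3%, against 4.28% and 4.08% of all genes). In the fit on 12 libraries 9 were higher and 9 lower (list median 0.19), where 14.5% and 12.5% of all genes were. Without 1 compared library 2 to 4 were lower. Sparc, a collagen-binding glycoprotein, had 8640, 9050 and 8310 CPM against 3460, 2780 and 3690 CPM (1.39 ± 0.24, adjusted p = 0.00126), Bgn, the proteoglycan biglycan, 908, 1000 and 844 CPM against 329, 321 and 323 CPM (1.5 ± 0.28, adjusted p = 0.00218), and Col4a1, a chain of basement membrane collagen, 1100, 1160 and 1030 CPM against 532, 464 and 491 CPM (1.15 ± 0.22, adjusted p = 0.00253). Sparc lay at means of 873 CPM in CAST/EiJ and 1460 CPM in WSB/EiJ, below both strains compared. Col4a2, the partner chain of Col4a1, was also higher (1.15 ± 0.25, adjusted p = 0.00722). Col3a1, a fibrillar collagen of the list chosen after its values were seen, did not pass (0.16, adjusted p = 0.834).

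The lower matrix genes were led by Thbs1, the secreted thrombospondin, with 42.0, 54.8 and 56.7 CPM against 456, 297 and 208 CPM (-2.65 ± 0.43, adjusted p = 0.000639). Dcn, the proteoglycan decorin, had 721, 571 and 538 CPM against 1620, 1600 and 1420 CPM (-1.34 ± 0.23, adjusted p = 0.000942), and Timp2, an inhibitor of matrix proteases, was lower by 0.95 on the log2 scale (-0.95 ± 0.21, adjusted p = 0.00853). Lum, a relative of decorin (-1.07 ± 0.30, adjusted p = 0.031), and Fn1, fibronectin (-0.84 ± 0.25, adjusted p = 0.0417), completed the lower set, and Fn1 lost its call in 12 of the 24 fits without 1 library. Col4a2, Lum and Fn1 were named after their values were seen. Without NZO/HiLtJ replicates 1 and 2 the counts were 0 higher and 1 lower. Of 13 smooth muscle and pericyte markers 2 were higher and 0 lower (15.4% against 4.28% of all genes higher). The count was 1 higher without 1 compared library. In the fit on 12 it was 4 higher and 2 lower, against 14.5% and 12.5% of all genes. The list median was -0.86, and 5 of the 13 had a positive difference. No overlap was found for 4 on the higher and 7 on the lower side, against 46.5% of all genes in either direction. The sums overlapped (777 to 843 against 765 to 1290 CPM). The pericyte marker Cspg4 had 25.6, 35.7 and 32 CPM against 9.61, 16.3 and 12.7 CPM (1.27 ± 0.23, adjusted p = 0.00169), Pdgfrb, a growth factor receptor of pericytes, was higher by 0.68 ± 0.20 (adjusted p = 0.0392, lost in 8 of the 24 fits). Angpt1, a ligand that steadies vessels, was the 1 higher gene of 17 endothelial genes (1.59 ± 0.42, adjusted p = 0.0262, lost in 5 of the 24 fits), with 6 higher and 0 lower in the fit on 12. The 1 call is 5.88% of the endothelial list, against 4.28% of all genes higher. Cd34, a surface marker of preadipocytes and endothelium, was lower, at 104, 102 and 91.8 CPM against 219, 246 and 172 CPM (-1.10 ± 0.22, adjusted p = 0.00333).

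No adipocyte marker passed in the fit on 24 libraries, where 0 of 20 were called. Lep, the leptin gene, had 1380, 1490 and 1220 CPM in NZO/HiLtJ against 699, 528 and 965 CPM, without overlap (0.90 ± 1.04, adjusted p = 0.71, and 0.184 in the fit on 12 libraries). Adipoq, the adiponectin gene, had 1670, 1690 and 1940 CPM against 2290, 2040 and 2370 CPM (-0.34 ± 0.90, adjusted p = 0.898 and 0.097). The direction of the 2 hormones was thus opposite, and neither difference passed in either fit. Cd36, a fatty acid carrier (0.09 ± 0.85), and Lpl, the lipoprotein lipase (0.27 ± 0.82), overlapped between the groups. In the fit on 12 libraries 3 of the 20 markers were higher and 2 lower, near the shares of all genes in that fit (14.5% and 12.5%). Cidec, a protein that fuses lipid droplets, had 5880, 5870 and 5730 CPM against 3390, 3290 and 3110 CPM (0.84 ± 0.90, adjusted p = 0.682 and 0.00128), and Cfd, the adipocyte protease adipsin, 750, 872 and 1040 CPM against 3080, 3400 and 1440 CPM (-1.57 ± 1.03, adjusted p = 0.431 and 0.00347).

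Lipid droplet and lipolysis genes had a list median of 0.48. Of these 17 genes 0 were called in the fit on 24 libraries and 7 were higher in the fit on 12, with 0 lower. Plin2, a droplet coat protein, had 676, 684 and 575 CPM against 288, 343 and 437 CPM (0.86 ± 0.44, adjusted p = 0.278 and 0.00426). Cidea and Ucp1, genes of brown and beige fat, had 7.51, 17.0 and 12.2 CPM against 2.41, 3.19 and 1.35 CPM and 6.39, 15.8 and 4.94 CPM against 0.162, 2.39 and 0.76 CPM. Of the 15 brown and beige genes 0 passed in the fit on 24 libraries, and 8 were higher and 1 lower in the fit on 12. The lower one was Adrb3, the main beta-adrenergic receptor of fat, at 124, 222 and 278 CPM against 536, 641 and 450 CPM (-1.38 ± 0.91, adjusted p = 0.429 and 0.00239). On the same diet CAST/EiJ and WSB/EiJ had mean Ucp1 levels of 93.1 and 29.9 CPM, above both strains. Cfd, Plin2, Cidea and Ucp1 were named after their values were seen.

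Of 25 fatty acid and triglyceride synthesis genes 0 were called with 24 libraries. With 12 libraries 2 were higher and 1 lower, smaller shares than the 14.5% and 12.5% of all genes. Of the 25 genes 7 had no overlap, 5 higher and 2 lower, a smaller share than the 46.5% of all genes in either direction. Gpam, which starts glycerolipid synthesis, had 180, 296 and 236 CPM against 640, 752 and 423 CPM (-1.35 ± 0.42, adjusted p = 0.0569 and 0.00267 in the fit on 12). Gpd1, which makes glycerol phosphate, had 1050, 1180 and 999 CPM against 198, 300 and 741 CPM (1.38 ± 0.70, adjusted p = 0.272 and 0.0285). Both were named after their values were seen. Fasn, the fatty acid synthase, had 2070, 4550 and 3130 CPM against 795, 1770 and 3150 CPM (0.77 ± 0.83, adjusted p = 0.684), and Scd1, the main desaturase of fat, 5610, 8300 and 7200 CPM against 4160, 5620 and 6010 CPM (0.42 ± 0.92, adjusted p = 0.868). Among 21 oxidation genes Cpt1b, the muscle form of the carnitine carrier that admits fatty acids to mitochondria, was called, with 14.9, 17.4 and 15.4 CPM against 1.43, 2.70 and 1.73 CPM (3.02 ± 0.78, adjusted p = 0.0216). This 1 call is 4.76% of the list, near the 4.28% of all genes higher. In the fit on 12 libraries 8 of the 21 were higher and 1 lower, and without 1 compared library 0 or 1 was called. Of 27 oxidative phosphorylation subunits 26 had a positive difference and 0 were called, and 7 were higher in the fit on 12 libraries (list median 0.23). Of 19 hypoxia and glycolysis genes 2 were higher (0 to 3 without 1 compared library, 6 in the fit on 12), the phosphofructokinases Pfkp (0.86 ± 0.19, adjusted p = 0.00881) and Pfkl (1.21 ± 0.31, adjusted p = 0.022), and of 22 cholesterol genes 1 was higher (0 or 1 without 1 compared library, 8 in the fit on 12). This was Abcg1, which exports cholesterol (31.3, 31.5 and 29.3 CPM against 11.9, 10.3 and 17.3 CPM, 1.22 ± 0.34, adjusted p = 0.0307). The 1 call is 4.55% of the cholesterol list, near the 4.28% of all genes higher.

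Insulin signalling had 1 called gene among 21, which is 4.76%, near the 4.28% of all genes higher. Grb14, an adaptor that inhibits the insulin receptor, had 21.7, 18.7 and 22.9 CPM against 4.04, 5.36 and 6.33 CPM (2.01 ± 0.36, adjusted p = 0.00169), with CAST/EiJ and WSB/EiJ lower still at means of 2.62 and 2.32 CPM. The receptor substrates Irs1 and Irs2, named after their values were seen, had 24.1, 31.2 and 29.2 CPM against 43.2, 57.3 and 33.5 CPM and 5.64, 11.3 and 9.39 CPM against 20.8, 19.8 and 25.5 CPM. They passed only in the fit on 12 libraries (adjusted p = 0.0152 and 0.00231), where 3 of the 21 were higher and 7 lower. Natriuretic peptide receptors were lower for 2 of 3 genes. Npr1, a signalling receptor, had 36.0, 36.5 and 33.8 CPM against 65.5, 62.0 and 59.7 CPM (-0.81 ± 0.16, adjusted p = 0.00299) and Npr2 110, 123 and 131 CPM against 197, 207 and 165 CPM (-0.65 ± 0.17, adjusted p = 0.0248). Npr3, the clearance receptor, chosen after its values were seen, overlapped at 700, 789 and 791 CPM against 663, 403 and 903 CPM (0.21 ± 0.76, adjusted p = 0.929). Npr1 and Npr2 were the 2 lower of 16 genes in the adrenergic and natriuretic list (1 or 2 without 1 compared library, 2 higher and 5 lower in the fit on 12). Rarres2, which encodes the adipokine chemerin, was the 1 called gene of 17 adipokine and expansion genes (155, 153 and 137 CPM against 90.5, 64.4 and 88.1 CPM, 0.87 ± 0.25, adjusted p = 0.0352), also in the fit on 12 libraries. In the fit on 24 libraries the 1 call is 5.88% of that list, against 4.28% of all genes higher. The call was lost without any 1 of the 6 compared libraries, which left 0 of 17.

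**Figure D3:**
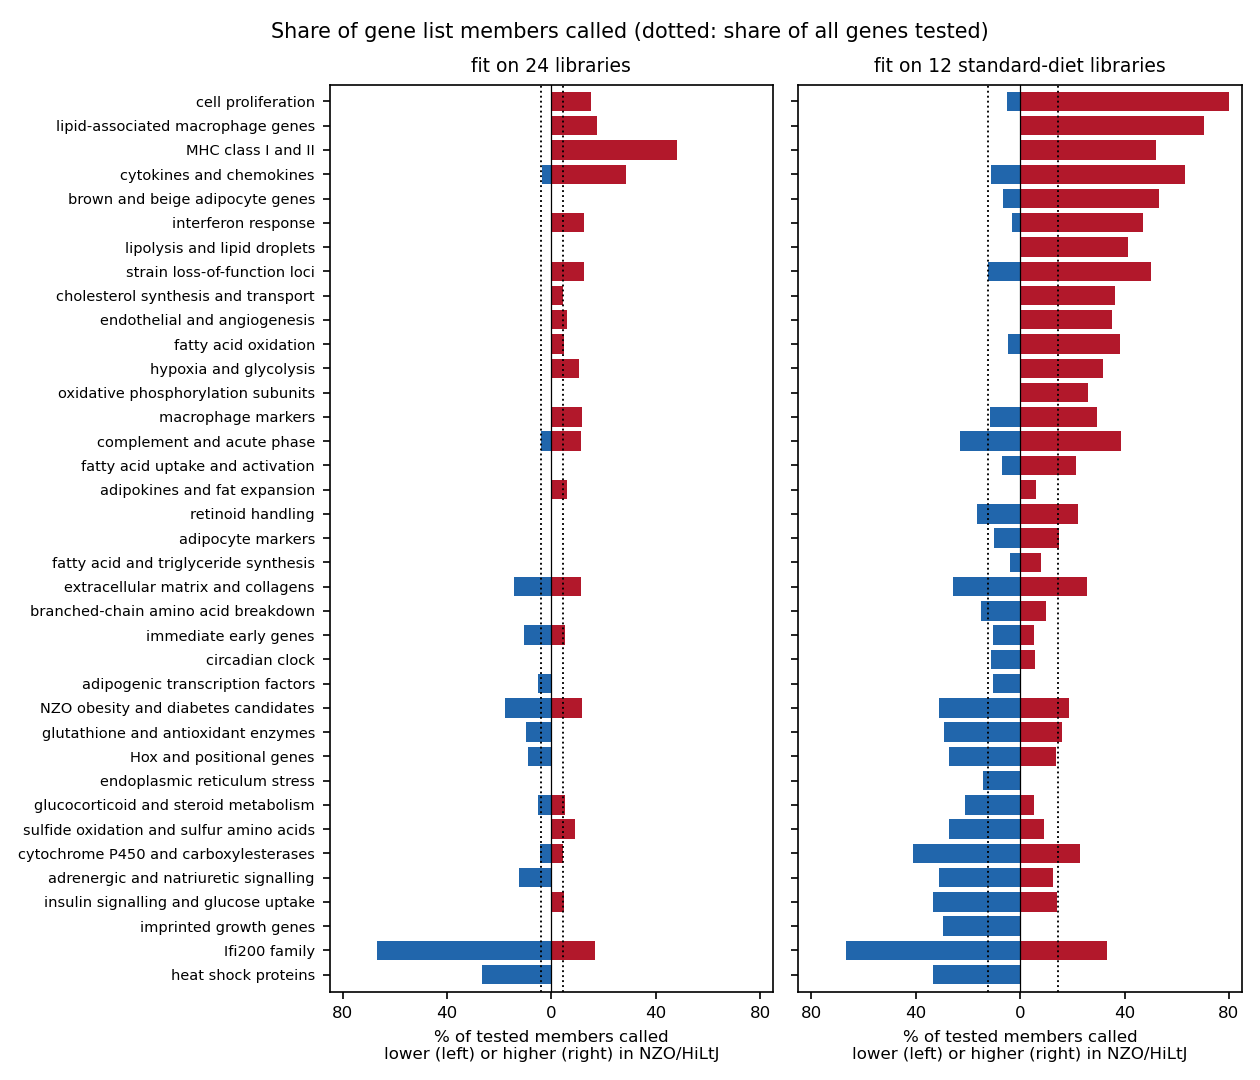
Share of the tested members of each gene list called higher (right, red) or lower (left, blue) in NZO/HiLtJ, in % of tested members, in the fit on 24 libraries (left panel) and on the 12 standard-diet libraries (right panel). Dotted lines mark the shares among all genes tested, 4.28% and 4.08% at left and 14.5% and 12.5% at right, and the class I and II list reached 12 of 25 at left and 13 of 25 at right.

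Of 15 heat shock genes 4 were lower and 0 higher (list median -0.20, 26.7% against 4.08% of all genes lower). The lower count was 2 to 4 without 1 compared library, 1 without NZO/HiLtJ replicates 1 and 2, and 5 in the fit on 12 libraries. Of 21 endoplasmic reticulum stress genes 0 were called, with 3 lower in the fit on 12. Cryab, a small heat shock protein, had 18.0, 19.1 and 18.3 CPM against 67, 68.7 and 85.7 CPM (-2 ± 0.29, adjusted p = 0.000226), Hsf1, the heat shock transcription factor, was lower by 0.57 on the log2 scale (-0.57 ± 0.12, adjusted p = 0.00542), and the inducible chaperones Hspa1b (-1.75 ± 0.43, adjusted p = 0.0169) and Hspa1a (-1.54 ± 0.42, adjusted p = 0.0286), near-identical copies, were lower together. Hspa1a was named after its values were seen. Of 31 glutathione and antioxidant genes 3 were lower and 0 higher, and 9 and 5 in the fit on 12 libraries. All 3 were mu-class transferases, which are close copies: Gstm6, given above, Gstm2 (46.8, 55.5 and 55.6 CPM against 146, 140 and 145 CPM, -1.45 ± 0.24, adjusted p = 0.00072) and Gstm5 (-1.13 ± 0.26, adjusted p = 0.0104). Of 22 cytochrome P450 and carboxylesterase genes 1 was higher and 1 lower, 4.55% each, near the shares of all genes, and 5 and 9 in the fit on 12. These were Cyp2s1, a cytochrome P450, which was lower (-2.27 ± 0.40, adjusted p = 0.0013), and Ces2e, a carboxylesterase, which was higher (2.42 ± 0.69, adjusted p = 0.0358, lost in 5 of the 24 fits). Of 26 complement and acute phase genes 3 were higher and 1 lower (0 to 2 higher without 1 compared library, 10 and 6 in the fit on 12). C2, a complement protease, was lower at 127, 130 and 135 CPM against 429, 354 and 347 CPM (-1.53 ± 0.24, adjusted p = 0.00051), while Apcs and Saa4, both liver products, were higher with the order of Alb across NZO/HiLtJ mice (1.29, 1.96 and 0.314 CPM and 1.77, 2.56 and 0.628 CPM).

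Hormone-related genes included Hsd11b1, which regenerates active glucocorticoid in fat, at 152, 202 and 198 CPM against 38.8, 37.9 and 55.2 CPM (2.07 ± 0.55, adjusted p = 0.0252). Its means in CAST/EiJ and WSB/EiJ were higher than in both, 321 and 916 CPM. Esr1, the estrogen receptor, named after its values were seen, had 36.1, 47.9 and 35.5 CPM against 93.8, 108 and 99.7 CPM (-1.33 ± 0.46) and passed only in the fit on 12 libraries (adjusted p = 0.0837 and 2.86e-05). Among 22 Hox and positional genes Hoxd8 (-0.91 ± 0.20, adjusted p = 0.00763) and Hoxc11 (-0.95 ± 0.27, adjusted p = 0.0344, lost in 8 of the 24 fits) were lower (0 to 2 without 1 compared library, 3 higher and 6 lower in the fit on 12). These 2 calls are 9.09% of the list, against 4.08% of all genes lower. In the fit on 12 the shares of all genes were 14.5% higher and 12.5% lower. Of 20 proliferation genes 3 were higher, and 16 higher and 1 lower in the fit on 12 libraries (list median 1.14). The count was 1 without 1 compared library and 0 without NZO/HiLtJ replicates 1 and 2. Foxm1, a transcription factor of dividing cells, had 4.36, 4.12 and 3.84 CPM against 1.44 CPM in each of the C57BL/6J libraries (1.51 ± 0.34, adjusted p = 0.00913).

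Of 17 genes proposed elsewhere for obesity or diabetes of NZO and related strains, 2 were higher (Ifi202b and Abcg1, both given above) and 3 lower. These are 11.8% and 17.6% of the list, against 4.28% and 4.08% of all genes. Without 1 compared library 1 or 2 were higher and 1 to 3 lower. In the fit on 12 libraries 3 were higher and 5 lower, where 14.5% and 12.5% of all genes were. Pctp, which transfers phosphatidylcholine, had 2, 2.86 and 1.73 CPM against 4.83, 4.27 and 5.12 CPM (-1.11 ± 0.27, adjusted p = 0.0143). Dpp4, the peptidase that inactivates incretins, had 20.9, 23 and 16.7 CPM against 46.9, 43.3 and 55.2 CPM (-1.26 ± 0.32, adjusted p = 0.0214), and Lefty1, a secreted antagonist of nodal signalling, 0.148, 0.144 and 0.0655 CPM against 1.73, 1.91 and 2.10 CPM (-3.98 ± 0.54, adjusted p = 0.000123). Tst, the sulfurtransferase that the series is concerned with, overlapped between the strains (0.36 ± 0.49, adjusted p = 0.76). Nnt, in which C57BL/6J carries a known deletion of exons, also overlapped at the level of whole-gene counts, at 46.8, 58.7 and 47.6 CPM against 55.6, 64.5 and 57.9 CPM (-0.22 ± 0.17, adjusted p = 0.518). A whole-gene count does not check that deletion. Of the sulfur amino acid genes Cth, the cystathionine lyase, was higher (1.67 ± 0.36, adjusted p = 0.00713).

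The 11 mesothelial and intra-abdominal fat markers summed to 81.3 to 130 CPM in NZO/HiLtJ and 353 to 380 CPM in C57BL/6J, a ratio of means of 0.305, without overlap. Of the 11 genes 5 were lower and 0 higher, 10 lower in the fit on 12 libraries, and the list median was -2.05. Wt1, a transcription factor of mesothelium, had 18.6, 22.3 and 15.4 CPM against 70.2, 89.6 and 72.8 CPM (-2.05 ± 0.35, adjusted p = 0.00101), and Lrrn4 had 5.68, 6.20 and 3.95 CPM against 22.5, 25.4 and 27.6 CPM (-2.25 ± 0.52, adjusted p = 0.0116). Upk3b, which was named after its values were seen, was lower by 2.36 on the log2 scale (-2.36 ± 0.66, adjusted p = 0.032, lost in 6 of the 24 fits). CAST/EiJ had Wt1 at a mean of 72.2 CPM and WSB/EiJ at 58.8 CPM, closer to C57BL/6J. Without any 1 of the 6 compared libraries 1 or 2 of the markers were lower. Their part in other lower genes of stromal cells, such as Aebp1, Igfbp6 and Dcn, was not tested.

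Liver markers lay at 604 to 2290 CPM in NZO/HiLtJ and 757 to 1580 CPM in C57BL/6J in sum (exact permutation p = 0.8, 2-sided), and 14 of 17 tested genes had no overlap with NZO/HiLtJ on top, against 46.5% of all genes in either direction. Of the 17 genes 0 were called with 24 libraries (0 to 2 higher without 1 compared library), and 13 were higher and 1 lower with 12, against 14.5% and 12.5% of all genes. The liver list median was 2.93, and 16 of the 17 genes had a positive difference, though the sums overlapped. Alb had a difference of 3.02 ± 0.96 (adjusted p = 0.0611, and 0.0359 in the fit on 12). Mammary and other epithelial markers summed to 20.1 to 36.7 CPM against 73.2 to 81.0 CPM, with Krt19 (-2.11 ± 0.65, adjusted p = 0.0518) among the keratins also found in mesothelium, and 0 of 15 were called, with 4 lower in the fit on 12. Epcam, which defines epithelium, was at most 0.45 CPM in the 6 libraries and Csn2, the milk casein gene, at 0 counts in each. Skeletal muscle markers summed to 92.4 to 104 CPM against 68.0 to 80.6 CPM. Kidney and erythroid markers overlapped widely between the groups.

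**Figure D4:**
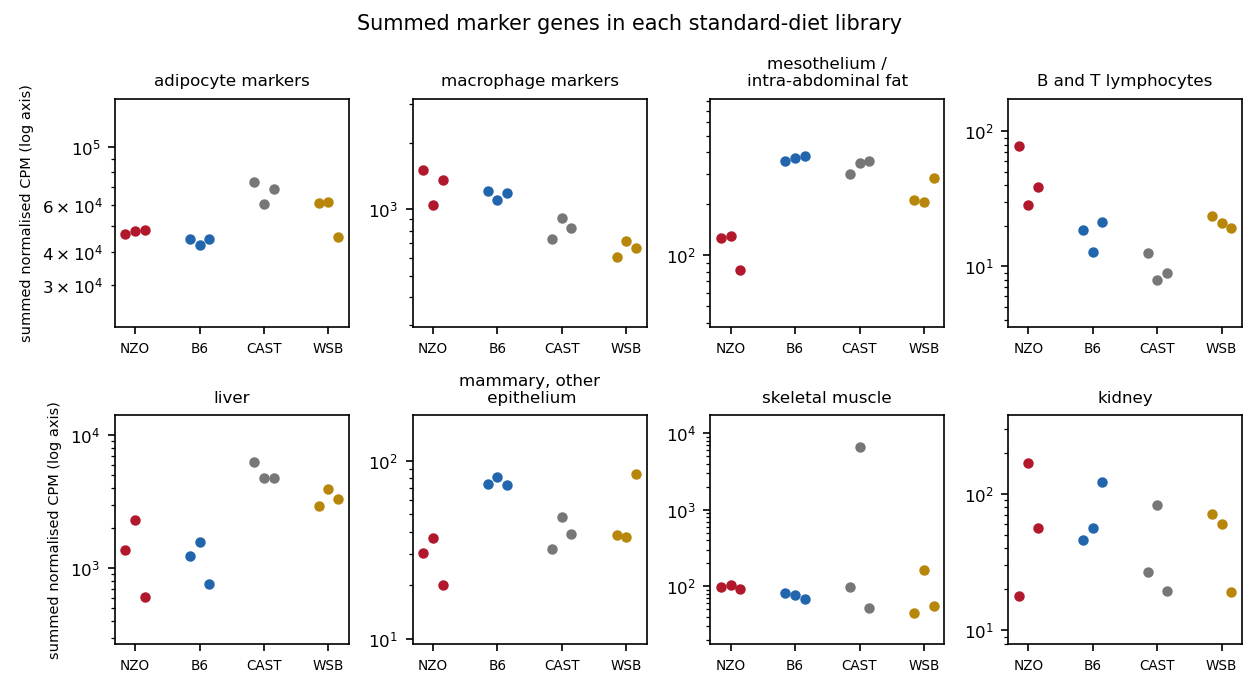
Sum of the normalised CPM of 8 marker lists (log axis) in each of the 12 standard-diet libraries, 1 point per mouse, by strain (NZO for NZO/HiLtJ, B6 for C57BL/6J, CAST for CAST/EiJ, WSB for WSB/EiJ). The mesothelium list lies at 81.3 to 130 CPM in NZO/HiLtJ and 353 to 380 CPM in C57BL/6J. The adipocyte list lies at 46700 to 48400 CPM and 42500 to 44700 CPM, also without overlap but with a ratio of means of 1.08.

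The same strains on the high-fat diet gave a second comparison from 6 other mice. There 1587 genes were higher and 1389 lower in NZO/HiLtJ, 7.92% and 6.93% of those tested. Of the 1675 genes called on the standard diet 95.5% had the same sign on the high-fat diet, against 71% of all genes, and 1063 were called with the same sign on both diets, which is 63.5% of the standard-diet calls and 35.7% of the high-fat calls. A call in both with opposite signs was made for 5 genes. Ifi202b (9.39), H2-Q1 (1.63), Tnip1 (2.06), Tceanc2 (-3.45), Cryab (-2.42) and Wt1 (-2.32) were among those with similar differences on the high-fat diet. The liver-type genes A1bg and Hamp2 had negative differences there that did not pass (-1.52 and -0.93, adjusted p = 0.491 and 0.602).

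The test of the difference between diets passed for 99 genes, 0.494% of all, of which 35 had been called on the standard diet. Of these 35 genes 21 were higher in NZO/HiLtJ on the standard diet and further apart on the high-fat diet, and macrophage genes were among them. Cd68 had means of 76.0 CPM in NZO/HiLtJ and 40.3 CPM in C57BL/6J on the standard diet. On the high-fat diet these were 281 and 47.8 CPM. Its strain difference was larger on the high-fat diet by 1.64 ± 0.24 (adjusted p = 0.00484). For Thbs1 the sign of the strain difference was not the same on both diets. It was lower in NZO/HiLtJ on the standard diet, at means of 51.1 against 321 CPM, and lay at 99.3 against 64.9 CPM on the high-fat diet (difference between diets 3.26 ± 0.58, adjusted p = 0.0131). In the plot of both diets most genes have the same sign on both axes. The number of genes for which the diets differed was 31 to 111 in the fits without 1 of these 12 libraries and 492 by the Wald test of DESeq2.

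**Figure D5:**
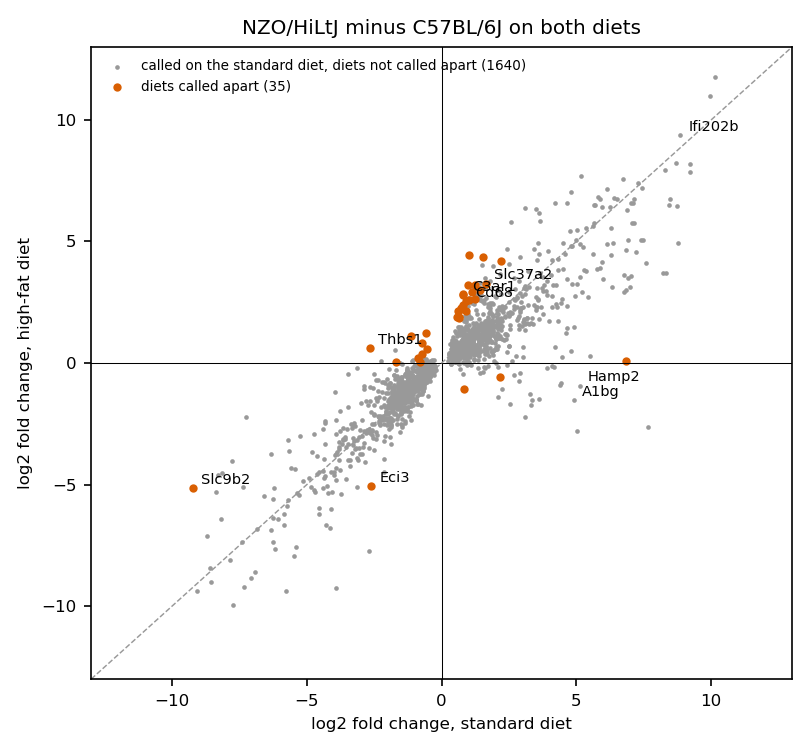
Log2 fold change of NZO/HiLtJ minus C57BL/6J on the high-fat diet (y axis) against that on the standard diet (x axis) for the 1675 genes called on the standard diet, 1 point per gene, with a dashed line where both are equal. Orange points are the 35 genes whose strain difference differed between the diets by the test, such as Thbs1, Eci3 and Cd68.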

How the data were processed

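Gene expression was measured by poly(A) RNA-seq with TruSeq libraries, per the labels' protocols. The authors deposited a table of expected counts per gene, and the submitters' processing notes name CASAVA 1.8.0, RSEM 1.2.1 and Bowtie 0.12.8 with the builds NCBIM37 and mm9, without their roles. The deposited estimated counts are whole numbers. How they were rounded and whether strand was used are not given in the sources used here. A second deposited table holds upper-quartile normalised signal, equal to each count over the 75th percentile of its library's counts above 0 within 5e-04. Reads were compared with a C57BL/6J reference, so NZO/HiLtJ reads that differ from it could be counted less often. 0 columns had no sample, and 32919 of 37991 identifiers (86.65%) matched a symbol.

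In R 4.3.3 with edgeR 4.0.16, the low-count filter by group kept 20035 genes. A quasi-likelihood model with 1 coefficient per strain and diet was fitted to 24 libraries in 8 groups (16 residual degrees of freedom, biological coefficient of variation 40.1%), scaled by TMM. The contrasts were NZO/HiLtJ minus C57BL/6J on each diet and the difference between diets, adjusted over all genes. Marker sums were compared by exact permutation. Counting intervals are exact, at 95%, and cover counting error only. The scripts were tested on simulated data. The members, 48 gene lists and tests were chosen with earlier results of these data known.

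The text names, among called genes without overlap that reach a mean of 5 CPM in the higher group (predicted genes and pseudogenes aside), 12 per direction by fold, then 12 per direction by smallest p, up to 3 list members per direction or 2 where none passed, and Tst, Nnt, Ifi202b, Lep and Adipoq. For space part of the list members are left out, and a few genes that the rule names are not reported here. Other genes are said to be named after their values were seen, which also holds for Ccl2, Cd163, H2-Q7, Hspa1a and Igtp. Alternatives were other scalings, DESeq2 1.42.0, limma 3.58.1 (voom on counts, and log2 of the deposited signal + 0.005), other filters, robust estimation and fewer libraries. The labels give no replicate numbers, so numbers follow accession order.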

Additional observations from a re-analysis of the deposited data

Results flagged for a closer look

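Of the genes named, 7 had a strain difference that differed between the diets by the test of that difference in edgeR, given here as the high-fat minus the standard-diet log2 difference. It was 1.64 for Cd68, 2 ± 0.30 for C3ar1, a complement receptor of macrophages (adjusted p = 0.00502), 1.55 ± 0.25 for Lipa (adjusted p = 0.00908) and 1.61 ± 0.28 for Slc37a2 (adjusted p = 0.0111), all with NZO/HiLtJ higher on both diets and further above C57BL/6J on the high-fat diet. C3ar1 had means of 15.3 CPM in NZO/HiLtJ and 8.71 CPM in C57BL/6J on the standard diet, against 73.6 and 10.5 CPM with high fat. Thbs1 had 3.26. Eci3 had -2.44 ± 0.45 (adjusted p = 0.0155), as NZO/HiLtJ went from 3.38 CPM on the standard to 0.541 CPM on the high-fat diet and C57BL/6J from 20.8 to 18.1 CPM. Slc9b2 had 4.10 ± 0.90 (adjusted p = 0.0492), with means of 0.00848 and 0.096 CPM in NZO/HiLtJ, a fitted value that rests on 2 counts in the standard-diet libraries.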

How the results depend on the processing

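No paired analysis was made, because the groups compared are different mice of 2 strains and the labels name no pairs. The number of genes called on the standard diet was 1675 and stayed within 1.5 times of that with the other scalings, limma, robust estimation, other filters and the deposited signal (1385 to 1904). It was 2629 with DESeq2, 5148 with the 12 standard-diet libraries, 5739 with the 6 compared libraries alone, 3305 without CAST/EiJ replicate 1 fed high fat, 5332 without the 6 libraries in which Epcam reached 5 CPM, and 322, with 313 of the 1675 among them, without NZO/HiLtJ replicates 1 and 2, an alternative chosen after seeing the data. Without 1 library it was 772 to 3305. Higher calls were 51.2% of all, and 60.4% with the deposited signal. On the high-fat diet 2976 calls became 7180 with the 12 libraries of both strains, 5484 without that CAST/EiJ library, 6480 without the 6 with Epcam, and 1745 to 2862 without 1 of the 12 (1745 and 1907 without high-fat replicates 2 and 1 of NZO/HiLtJ, 1874 without high-fat replicate 3 of C57BL/6J). For the difference between diets 99 became 492 with DESeq2, and 1136, 548 and 1109 in those 3 sets, and 31 to 111 without 1 library. The causes of these shifts were not tested. The median of all genes moved by less than 0.1 in every setting for which it was computed. Of 124 called genes followed one by one, 0 changed sign in any fit, 63 kept the call in all 24 fits without 1 library and 42 in all 13 other settings, and 0 lost it with 12 or 6 libraries.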

Other observations

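Called genes often lay next to each other. In the gene order of the reference annotation, with overlapping genes skipped, 24.7% of the 760 placed genes higher in NZO/HiLtJ had a nearest tested neighbour that was also higher, against 7.1% of the 17120 placed genes that were not called. Of the 760 placed genes that were lower 16.2% had a lower neighbour, against 7.59%. Neighbours in the opposite direction were found for 7.37% and 8.55%. Near-identical copies lie side by side, and their part in these shares was not tested.

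A developmental factor of the forelimb and heart, Tbx5, had 1.39, 1.81 and 1.13 CPM in NZO/HiLtJ against 0.0809, 0.0922 and 0.197 CPM in C57BL/6J (3.53 ± 1.15, adjusted p = 0.0659 by edgeR, and 0.000635 in the fit on 12 libraries). Pgr, the progesterone receptor, had 0.256, 0.826 and 0.236 CPM against 9.84, 17.4 and 4.33 CPM (-4.57 ± 1.77, adjusted p = 0.129 and 0.0261). Lepr, the leptin receptor, of which NZO mice carry a known variant, had 4.02, 4.18 and 4.65 CPM against 11, 11.3 and 9.78 CPM (-1.32 ± 0.58, adjusted p = 0.185 and 0.000956). All 3 genes were chosen after their values were seen.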
